A study of Mus musculus with 42 samples.

Results

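The genes described here are 54 enzymes of amino acid catabolism and the urea cycle in mouse liver. They were taken as a fixed list of gene symbols, by a rule with no threshold on a measured value, from 19758 genes listed in any of 6 tables of normalized counts, and each of the 54 was listed in all 6 tables. Liver transcripts were measured in 42 male C57BL/6J mice, 7 in each of 6 groups, to follow obesity, the receptor ChemR23 (gene Cmklr1) and resolvin E1 (RvE1), a lipid mediator that binds it. WT lean and KO lean mice ate a diet with 10% of energy from fat. WT obese and KO obese mice ate a lard-based diet with 60% of energy from fat for 15 weeks from 6 weeks of age. These 4 groups received a vehicle of ethanol and PBS by intraperitoneal injection. WT obese+RvE1 and KO obese+RvE1 mice ate the high fat diet and received 300 ng RvE1 on 4 consecutive days, and livers were taken on day 5 after at least 4 hours without food. KO mice lacked ChemR23 through CRISPR/Cas9 editing, and WT mice were their littermates.

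A normalized count is the reads of a gene divided by a size factor of its library, and each table held 14 libraries scaled on their own, so groups were compared only within a table. Between 15992556 and 43841273 reads per mouse fell on listed genes, and the 54 members took 2.10 to 3.40% of them. All 54 passed the filter of a mean of at least 5 normalized counts in every comparison. A gene was called when its adjusted p was under 0.1 in limma, and values after ± are standard errors of a log2 fold change unless SD is written. Cmklr1 ran from 39.2 to 110.1 normalized counts in WT lean and 30.1 to 92.7 in WT obese mice, against 10.7 to 24.9 in KO lean and 5.29 to 23.8 in KO obese mice. The tissue label was checked with 9 listed hepatocyte markers, none of them at 0 in any group, whose summed normalized counts were 1558450.0 to 2074760.0 in WT lean and 1334590.0 to 2088110.0 in WT obese mice. In whole liver, fewer cells of a type and less RNA per cell cannot be told apart.

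The liver is the main site where surplus amino acids lose their nitrogen and are broken down. Aminotransferases pass the amino group to glutamate, glutamate dehydrogenase releases it as ammonia, and the urea cycle in periportal hepatocytes turns ammonia into urea. The carbon skeletons run through separate mitochondrial and cytosolic chains for lysine, tyrosine, tryptophan, histidine, proline and the branched-chain amino acids, and enter the tricarboxylic acid cycle or gluconeogenesis. Methionine is activated to S-adenosylmethionine, the methyl donor of the cell, and its sulfur is passed to cysteine by transsulfuration. Several of these enzymes are known to respond to fasting, glucagon and glucocorticoids.

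The members covered a wide range of levels. Per kilobase of exon (normalized count divided by the gene's exon length in GENCODE M21 on GRCm38), Mat1a, the liver S-adenosylmethionine synthase, stood highest in WT lean mice at 39580.0 ± 5704 (SD, n = 7). It was followed by Tat, tyrosine aminotransferase, at 23726 ± 11181 and Gnmt, glycine N-methyltransferase, at 17981 ± 2814. The SD of Tat was wide enough that its mean did not stand apart from that of Gnmt. Arg1, the arginase that releases urea, reached 14573 ± 2186 and Cps1, which admits ammonia to the urea cycle, 7472 ± 1683. The subunits of methylcrotonyl-CoA carboxylase in leucine breakdown were low, with 50.3 ± 8.68 for Mccc1 and 177 ± 29.3 for Mccc2. Exon length here is the union of all exons of a gene, which is 10952 bases for Mccc1 and 2802 for Mccc2. The median normalized counts of these subunits in WT lean mice were close, at 522 and 501, so their gap per kilobase rests on this length. Ass1, argininosuccinate synthase of the urea cycle, stood last at 13.3 ± 5.01, with a lowest, median and highest normalized count of 13.1, 36.7 and 45.9. Ass1 is known as an abundant liver transcript, and the reason for its low deposited count was not tested.

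Spread between mice of a group also differed among the members. The median SD over the members on the log2 scale was 0.275 in WT lean and 0.331 in WT obese mice. Tat had the widest spread in WT obese mice, where its lowest, median and highest normalized counts were 9149, 32727 and 86961. Got1, the cytosolic aspartate aminotransferase, gave 1770.2, 4897 and 13333 in the same mice. This spread went with the identifier number. Mice 6L, 6RL and 6R gave 9149 to 21636 for Tat and 1770.2 to 2582 for Got1. The other WT obese mice gave 32727 to 86961 and 4897 to 13333. In KO obese mice Tat gave 10072, 21848 and 81796. There numbers 10 and 31 overlapped, at 10072 to 21848 and 19487 to 47619. Haao, an enzyme of tryptophan breakdown, was much tighter, at 3720.1, 4037 and 4322 in WT lean mice. The standard error of the WT diet effect was accordingly 0.48 for Tat and 0.10 for Gcdh, an enzyme of lysine breakdown.

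RefSeq promoter sequences on GRCm38.p6, from 250 bases before to 50 bases after a gene start, matched 42 of the 54 members. Those of Mccc1 and Mccc2, whose products form 1 enzyme, of Prodh, called in both diet comparisons, and of Uroc1, called in both comparisons that use KO lean mice, are shown because the results below turn on these genes. Capitals mark CCAAT (the CCAAT box), the GC box GGGCGG and the nuclear receptor motif AGGTCA, each searched on both strands, so that a match on the other strand shows as the reverse complement. The Mccc1 window is chr3:36000629-36000928, that of Mccc2 chr13:100015590-100015889 and that of Prodh chr16:18089141-18089440, all on the minus strand, and that of Uroc1 chr6:90333039-90333338 on the plus strand.
Mccc1: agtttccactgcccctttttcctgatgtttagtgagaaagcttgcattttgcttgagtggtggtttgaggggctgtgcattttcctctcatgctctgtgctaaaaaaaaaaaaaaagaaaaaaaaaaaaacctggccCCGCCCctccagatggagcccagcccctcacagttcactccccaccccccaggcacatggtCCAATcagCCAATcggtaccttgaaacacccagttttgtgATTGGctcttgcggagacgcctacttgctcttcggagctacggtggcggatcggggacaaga
Mccc2: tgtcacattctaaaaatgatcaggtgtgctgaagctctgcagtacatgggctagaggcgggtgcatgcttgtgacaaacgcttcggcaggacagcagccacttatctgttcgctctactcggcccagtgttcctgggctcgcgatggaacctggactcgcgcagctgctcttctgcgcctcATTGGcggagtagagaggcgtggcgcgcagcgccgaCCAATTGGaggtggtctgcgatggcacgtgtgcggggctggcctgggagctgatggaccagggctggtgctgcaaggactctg
Prodh: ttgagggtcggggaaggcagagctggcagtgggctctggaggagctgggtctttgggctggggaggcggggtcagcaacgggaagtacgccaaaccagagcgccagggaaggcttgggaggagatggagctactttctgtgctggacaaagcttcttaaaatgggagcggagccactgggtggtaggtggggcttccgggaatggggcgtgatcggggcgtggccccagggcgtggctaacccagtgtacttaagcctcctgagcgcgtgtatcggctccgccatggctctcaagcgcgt
Uroc1: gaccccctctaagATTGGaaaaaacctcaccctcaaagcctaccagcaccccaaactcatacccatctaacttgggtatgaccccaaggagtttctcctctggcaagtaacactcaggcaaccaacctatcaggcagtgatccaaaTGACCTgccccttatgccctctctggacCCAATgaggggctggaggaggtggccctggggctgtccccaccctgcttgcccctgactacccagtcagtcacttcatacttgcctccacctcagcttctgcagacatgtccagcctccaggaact
The windows of Mccc1 and Mccc2 each held 3 matches to CCAAT, and 2 of those in Mccc2 overlap in a palindrome. That of Prodh held no match to any of the 6 motifs searched, and that of Uroc1 held 2 matches to CCAAT and 1 to AGGTCA. The motif CCAAT was found in 57.8% of the 45 promoter windows of these 42 members against 37.4% of all 32851 promoters of the same length. AGGTCA, a motif known from nuclear receptor sites, was found in 35.6% of member promoters and 16.3% of all, and GGGCGG in 46.7% and 35.7%. TATAAA was found in 8.89% and 13.6%, TGTTCT in 8.89% and 19.0%, and TGACGTCA in 0 member promoters and 1.79% of all. A match is a description of letters and not a site.

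In WT mice on the high fat diet Prodh and Prodh2 of proline breakdown, Mccc2 of leucine, Hibch of valine and Gcdh of lysine breakdown, and the aminotransferase Gpt were higher. Of the 54 members 6 rose and 0 fell in WT obese compared with WT lean mice (limma), which is 11.1% of the members, against 3.65% of 14012 tested genes called higher and 2.61% called lower. At an unadjusted p under 0.05 the members gave 12 higher and 3 lower, and DESeq2 on recovered reads gave 6 and 1. The median log2 fold change of the members was 0.15 against 0.0030 for all genes, and 36 of 54 lay above 0. Of all genes 9.56% were higher and 8.6% lower at an unadjusted p under 0.05, and DESeq2 called 757 higher and 610 lower. All called members but Prodh were below a fold change of 1.5. Without the 3 WT obese mice whose identifier opens with 27, all 6 lost their calls, and 3 other members were called, 1 higher and 2 lower. With a random block for the number in front of the identifiers 4 of the 6 kept their calls, and Gpt (adjusted p = 0.129) and Hibch (adjusted p = 0.222) did not. The shares of all genes called in these fits are not given here, so the losses are not shown to be particular to the members.

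Proline dehydrogenase (Prodh), which opens mitochondrial proline breakdown, changed most among the called members. Its normalized count ran from 1148 to 3258 in WT lean mice (median 2255) and from 3002 to 5123 in WT obese mice (median 3769), and 5 of 7 obese mice lay above every lean mouse (log2 fold change 0.89 ± 0.20, adjusted p = 0.0245). Prodh2, hydroxyproline dehydrogenase, ran from 2224 to 2998 in WT lean mice (median 2665) and from 3104 to 4779 in WT obese mice (median 3531), with no overlap between the groups (0.48 ± 0.11, adjusted p = 0.0202). Aldh4a1, the dehydrogenase downstream of Prodh, gave 0.13 ± 0.15 and was not called. In the lysine chain, glutaryl-CoA dehydrogenase (Gcdh) also separated the groups completely. Its lowest, median and highest counts were 7204, 8211 and 10332 in WT lean mice against 10446, 11566 and 12907 in WT obese mice (0.46 ± 0.10, adjusted p = 0.019). The share of all tested genes without overlap was not counted, so separation is not shown to be particular to these members.

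All 11 members of the branched-chain and propionyl branch had a log2 fold change above 0 in WT mice, of which 2 were called. Mccc2 ran from 358 to 618 in WT lean mice (median 501) and from 603 to 814 in WT obese mice (median 705) (0.47 ± 0.12, adjusted p = 0.0343), so that 5 of 7 obese mice exceeded every lean mouse. Hibch, the hydrolase of valine breakdown, ran from 775 to 1281 in WT lean mice (median 948) and from 1218 to 1906 in WT obese mice (median 1396) (0.50 ± 0.14, adjusted p = 0.0552). Without any one of WT lean mice 19R and 21L or WT obese mice 27-2L and 6RL the call of Hibch was lost, and its log2 fold change over all alternatives stayed between 0.37 and 0.56. The other 9 members of this branch lay between 0.14 and 0.35. Gpt, cytosolic alanine aminotransferase, ran from 2795 to 3967 in WT lean mice (median 3571) and from 3459 to 5899.6 in WT obese mice (median 4646) (0.47 ± 0.13, adjusted p = 0.0527), a call lost without WT lean mouse 19R.

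The remaining branches had no called member in WT mice. Cbs, cystathionine beta-synthase at the entry of transsulfuration, came closest in the lower direction, with 3892, 6052 and 7691 in lean and 2382, 3889 and 5818 in obese mice as lowest, median and highest (-0.57 ± 0.19, adjusted p = 0.112). DESeq2 called it lower. Tat gave -0.69 ± 0.48, adjusted p = 0.477, within its wide spread. Kynureninase (Kynu) gave -0.39 ± 0.17, adjusted p = 0.217, and urocanate hydratase (Uroc1) 0.27 ± 0.11, adjusted p = 0.19. Otc, ornithine carbamoyltransferase, had the smallest p of the urea cycle at 0.44 ± 0.22, adjusted p = 0.308. The serine dehydratase-like gene Sdsl gave -0.32 ± 0.24, adjusted p = 0.512. Amt of the glycine cleavage system gave -0.089 ± 0.14, adjusted p = 0.783.

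In KO mice on the same diet Mccc1, Mccc2, Bckdhb, Pcca and Mut of the branched-chain and propionyl branch were higher, as were Prodh, Uroc1, Aldh7a1 and Dhtkd1, and Cth, Cbs, Mat1a, Arg1, Sdsl and Ftcd were lower. In KO obese compared with KO lean mice 9 members rose and 6 fell, or 16.7% and 11.1% of the members, beside 12.0% of 14213 genes called higher and 12.1% called lower. These shares were near the background of a comparison in which many genes were called. The median log2 fold change of the members was -0.00065 and that of all genes -0.0021. The fold change exceeded 1.5 for 2 members that rose and 3 that fell.

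The branched-chain and propionyl branch held 5 of the 9 members that rose. Both subunits of methylcrotonyl-CoA carboxylase separated the groups with no overlap, and the share of all tested genes that did so was not counted. Mccc1 ran from 446 to 617 in KO lean mice (median 500.1) and from 642 to 832 in KO obese mice (median 802) (0.55 ± 0.10, adjusted p = 0.0042). Mccc2 ran from 407 to 601 in KO lean mice (median 504) and from 641 to 821 in KO obese mice (median 757) (0.56 ± 0.10, adjusted p = 0.00445). Bckdhb, a subunit of the branched-chain ketoacid dehydrogenase, also did not overlap, with 578, 675 and 775 in lean and 865, 972 and 1080.2 in obese mice (0.47 ± 0.094, adjusted p = 0.0064). The partner subunit Bckdha went the other way without being called (-0.24 ± 0.12, adjusted p = 0.181). Pcca, a subunit of propionyl-CoA carboxylase, rose by 0.35 ± 0.093 (adjusted p = 0.0235), whereas its partner Pccb gave 0.071 ± 0.13, adjusted p = 0.75. Mut, methylmalonyl-CoA mutase and the last step to succinyl-CoA, rose by 0.38 ± 0.11 (adjusted p = 0.0313).

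Urocanate hydratase (Uroc1), the middle of the histidine chain, ran from 4177 to 6296 in KO lean mice (median 5175) and from 6995 to 9675 in KO obese mice (median 7634), with every obese mouse above every lean mouse (0.62 ± 0.11, adjusted p = 0.00478). Ftcd, the last enzyme of the same chain, fell, from 7819, 11103 and 13504 to 7419.6, 8605 and 10472 as lowest, median and highest, and only 1 obese mouse lay below all lean mice (-0.35 ± 0.12, adjusted p = 0.0685). Prodh rose as in WT mice, from 1257 to 3411 in KO lean mice (median 2397) and from 3032 to 5716 in KO obese mice (median 4457) (0.91 ± 0.21, adjusted p = 0.0132). Among lysine enzymes, aminoadipate semialdehyde dehydrogenase (Aldh7a1) rose by 0.52 ± 0.13 (adjusted p = 0.0184), with 5 of 7 obese mice above every lean mouse. Dhtkd1, the 2-oxoadipate dehydrogenase, rose by 0.58 ± 0.21 (adjusted p = 0.0732). Aass, which opens the chain, gave -0.65 ± 0.29, adjusted p = 0.137 in the opposite direction and was not called.

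All 6 members of the methionine and transsulfuration branch had a log2 fold change below 0 in KO mice, and 3 of them fell. Cth, cystathionine gamma-lyase, ran from 6909 to 18262 in KO lean mice (median 11645) and from 3377 to 10636 in KO obese mice (median 6883) (-0.90 ± 0.26, adjusted p = 0.0318). Cbs ran from 4029 to 7613 in KO lean mice (median 6207) and from 3139 to 4832 in KO obese mice (median 3857), with 4 of 7 obese mice below every lean mouse (-0.59 ± 0.15, adjusted p = 0.0208). Mat1a fell by 0.52 on the log2 scale, with an adjusted p of 0.0903 close to the threshold. Gnmt, Ahcy and Bhmt gave -0.45, -0.32 and -0.16 and were not called. Arg1 fell from 39328, 56051 and 64486 to 26034, 33079 and 51619 (-0.51 ± 0.19, adjusted p = 0.0712), and the other 5 urea cycle members were not called, with log2 fold changes of -0.29 to 0.23. Sdsl fell by 0.85 on the log2 scale (adjusted p = 0.0273). In 6 of 7 KO obese mice it was at or below 268 normalized counts and below every KO lean mouse, whereas mouse 23L reached 579.

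Lower calls in KO mice depended on the block for identifier numbers, and some on single mice and on scaling. With the block Cbs alone stayed lower (adjusted p = 0.0762), and Cth (adjusted p = 0.138), Sdsl (adjusted p = 0.113), Arg1, Ftcd and Mat1a lost their calls, as did Mut (adjusted p = 0.104) and Dhtkd1 among the higher ones. The calls of Arg1, Ftcd and Mat1a were lost when all libraries were scaled to equal totals. They were also lost when any one of KO lean mice 14RL, 20L and 9L or KO obese mice 10-2L, 10R and 31R was left out, and kept in 6, 7 and 4 of 14 such fits. The number of KO calls ran from 11 to 21 over single mice left out, with 21 (9 higher and 12 lower) without KO obese mouse 23L. It was 5 without the 3 KO obese mice whose identifier opens with 31. For the block and for mice left out, the shares of all genes called are not given here. Under equal totals 13 members were called higher and 3 lower, beside 18% and 4.42% of all genes, with the median of all genes moved by 0.14, and the median of the members relative to that of all genes was 0.0014 as deposited and 0.0037 under equal totals. The higher calls of Mccc1, Mccc2, Uroc1 and Bckdhb held at an adjusted p under 0.1 in all 8 other fits and with any mouse or identifier number left out.

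Markers of other cells and of hepatocyte zones moved with these calls. Of 11 tested Kupffer cell and macrophage markers 8 were lower in KO obese than in KO lean mice, and their summed normalized counts were 11411 to 23894 in KO lean and 6340.2 to 8894 in KO obese mice, with none of the listed markers at 0. Of 8 lymphocyte markers 4 were lower, with sums of 153 to 231 and 76.1 to 142. Of 12 pericentral hepatocyte markers 5 were higher and 1 lower, with sums of 153544 to 253416 and 189480.0 to 284510.0. Called among them were Glul, Slc1a2 and Oat, which are counted again in the lists of other enzymes and carriers below. Of 10 listed adipocyte markers 6 were tested and 3 were higher (Pparg, Car3 and Cfd), with sums of 6031 to 46545 and 40992 to 69818. Only these 3 had a log2 fold change above 0, so the list did not move as a whole. In WT mice 0 of 11 Kupffer cell markers were called (limma, with 0 at an unadjusted p under 0.05), 2 of 12 pericentral markers were higher, with sums of 153390.0 to 210727 in lean and 141872 to 274111 in obese mice, and 2 of 6 adipocyte markers were higher, with sums of 7581 to 58209 and 32881 to 71502. Of 10 periportal markers outside the members 1 was higher and 1 lower in WT and 4 were higher and 2 lower in KO mice, of 10 sinusoidal endothelial markers 1 was lower in WT and 4 in KO mice, and of 12 stellate cell markers 1 was lower in each. Of 3 erythroid markers 1 was lower in KO mice. Of 7 cholangiocyte and 2 acinar pancreas markers 0 were called in either genotype (limma), with 1 cholangiocyte marker higher in KO mice at an unadjusted p under 0.05. The part of these cells in the member results was not tested.

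**Figure D1:**
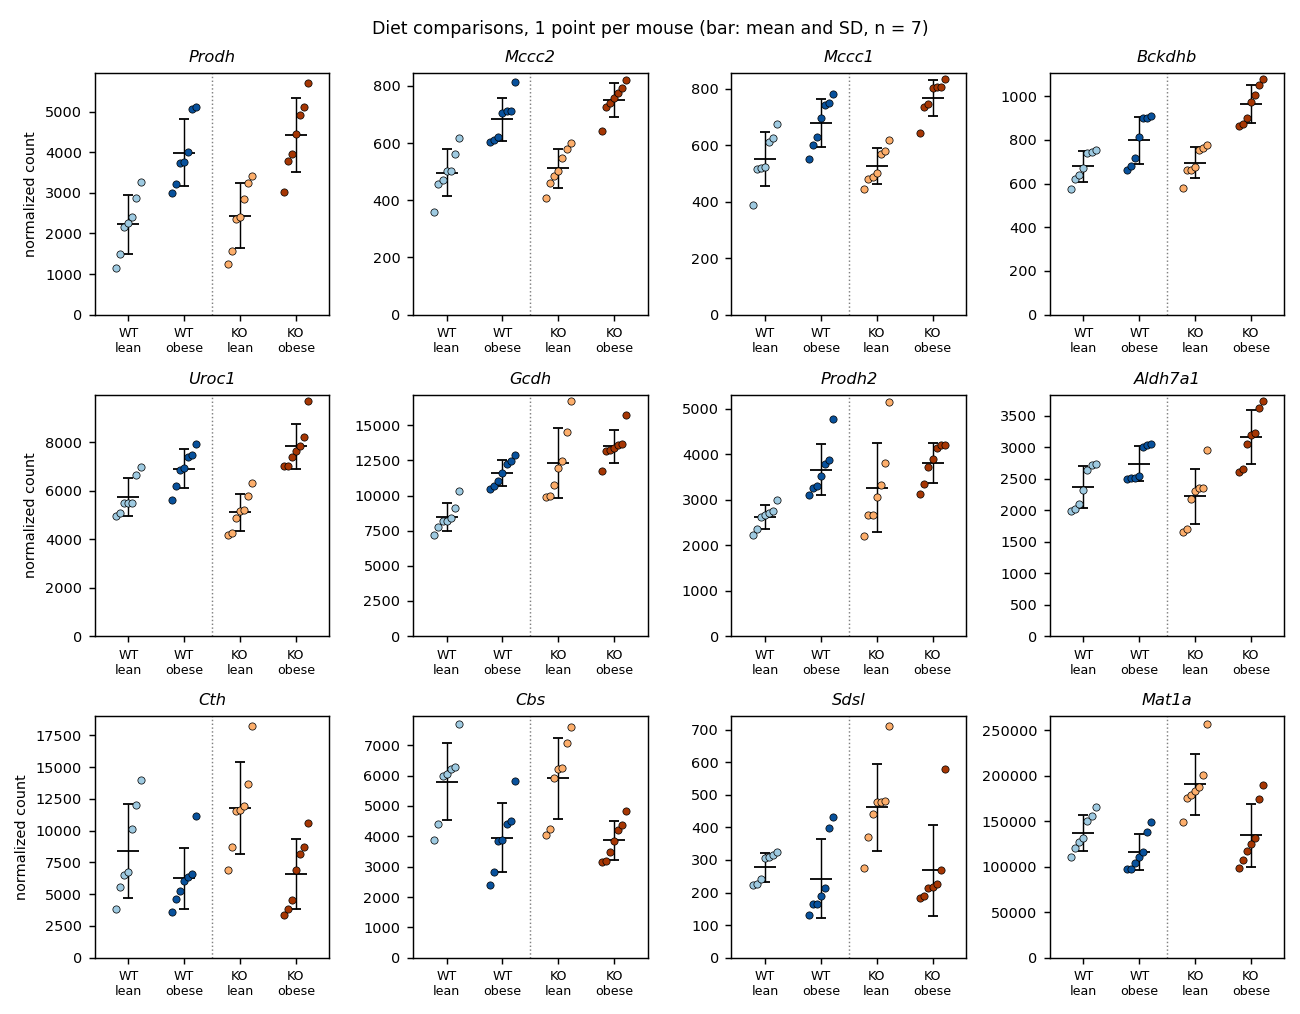
Normalized counts (vertical axis, from 0) of 12 members in each mouse of the 4 vehicle groups, with the mean and SD of 7 mice. WT groups come from the WT diet table and KO groups from the KO diet table, scaled separately and parted by a dotted line. Mccc1, Mccc2, Bckdhb and Uroc1 separate KO obese from KO lean mice without overlap, Gcdh and Prodh2 separate WT obese from WT lean mice, and 1 KO obese mouse stands at 579 in Sdsl. The share of all tested genes that separate these groups was not counted.

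The diet comparisons of the genotypes share no mice. Prodh and Mccc2 were called higher in both, 39 of 54 members (72.2%) had the same sign in both, and so had 58.5% of 13924 genes. The log2 fold change of Prodh was 0.89 in WT and 0.91 in KO mice, and that of Mccc2 0.47 and 0.56. Cbs gave -0.57 and -0.59, although only the latter was called. Whether a diet effect differed between genotypes was tested directly. No member was called for this interaction in limma, in a test that called 0.00718% of 13924 genes. At an unadjusted p under 0.05 it gave 1 member with a more positive and 5 with a more negative diet effect in KO mice, and DESeq2 called 1, Ftcd. Of all genes 9.01% and 9.32% did so at an unadjusted p, and DESeq2 called 385 and 541. The smallest p was that of Ftcd, at a KO minus WT difference of -0.48 ± 0.18 (95% interval -0.85 to -0.12, adjusted p = 0.166). Bckdha gave -0.38 ± 0.15 (-0.70 to -0.072), Uroc1 0.35 ± 0.15 (0.04 to 0.66) and Hibch -0.51 ± 0.24 (-0.997 to -0.028). For Hibch the counts in KO mice ran from 1017 to 2792 in KO lean mice (median 1621) and from 1255 to 2076 in KO obese mice (median 1627). In limma a member called in 1 genotype only was therefore not shown to differ between genotypes, and in DESeq2 Ftcd alone was. Without KO lean mouse 20R the interaction called 4 members, 1 higher and 3 lower, and the share of all genes called in that fit is not given here.

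**Figure D2:**
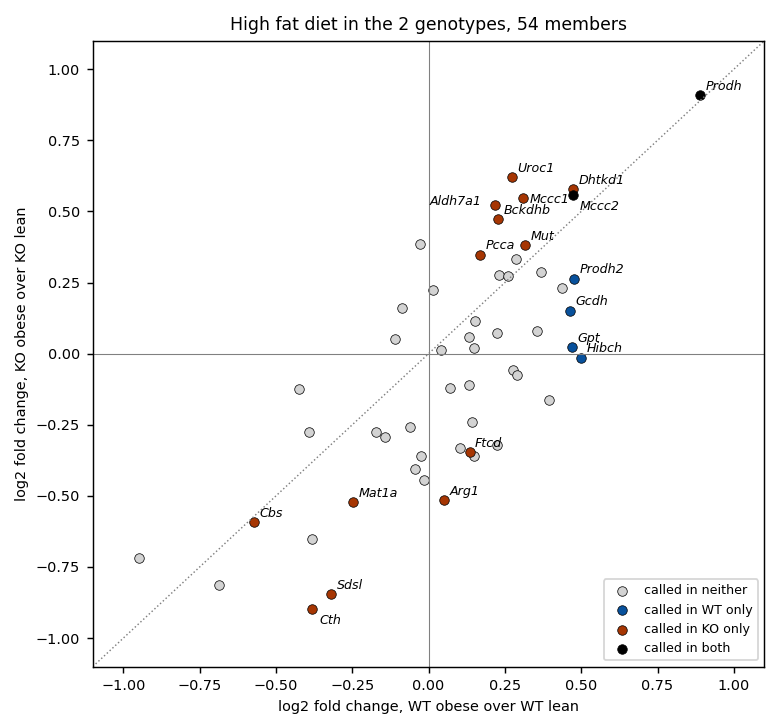
Log2 fold change of each of the 54 members with the high fat diet in WT mice (horizontal axis) and in KO mice (vertical axis), with colours for the comparison in which it was called and a dotted line of equality. Prodh (0.89 and 0.91) lies at the upper right, Cbs lies on the line at the lower left, and Hibch and Gpt lie near 0 on the KO axis.

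Among lean mice, arginase, Ftcd, Sdsl and Bckdha were called higher and Uroc1 lower in KO mice. In KO lean compared with WT lean mice 4 members were called higher and 1 lower, or 7.41% and 1.85% of the members, while 8.00% of 13031 genes were called higher and 8.30% lower. Both shares of the members were below those of all genes. The members' median log2 fold change was 0.096 and that of all genes -0.00042. No called member exceeded a fold change of 1.5, and no member was called at an adjusted p under 0.05 (limma), with 7 higher and 4 lower at an unadjusted p under 0.05, and 6 higher and 1 lower called by DESeq2 at an adjusted p under 0.1. Of all genes 13% were higher and 13.7% lower at an unadjusted p under 0.05, and DESeq2 called 1329 higher and 1253 lower.

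Arg1 ran from 25592 to 40839 in WT lean mice (median 33364) and from 35684 to 58540.0 in KO lean mice (median 50900.5), and 5 of 7 KO mice lay above every WT mouse (0.52 ± 0.15, adjusted p = 0.0548). Ftcd ran from 6197 to 8961 in WT lean mice (median 6894) and from 7124 to 12245 in KO lean mice (median 10083), with 6 of 7 KO mice above (0.42 ± 0.13, adjusted p = 0.06). Sdsl ran from 232 to 337 in WT lean mice (median 319) and from 251 to 646 in KO lean mice (median 433) (0.50 ± 0.17, adjusted p = 0.0747). Bckdha gave 0.33 ± 0.12, adjusted p = 0.0942, with lowest, median and highest of 3639.7, 4574 and 5441 in WT and 4583, 5893 and 7708 in KO mice. Uroc1 ran from 5141 to 7247 in WT lean mice (median 5704) and from 3791 to 5736 in KO lean mice (median 4692), with 5 of 7 KO mice below every WT mouse (-0.36 ± 0.12, adjusted p = 0.0671). All 5 called members overlapped between groups.

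The calls among lean mice changed with the settings. With all libraries at equal totals, which lowered the median of all genes by 0.12 on the log2 scale, Arg1, Ftcd, Sdsl and Bckdha lost their calls but kept their direction, and the split turned from 4 higher and 1 lower to 0 higher and 4 lower, namely Uroc1, Pcca, Mccc1 and Aldh7a1, while 3.01% of all genes were then called higher and 13.5% lower. The member median relative to that of all genes stayed at 0.097 as deposited and 0.095 under equal totals. No member was called without WT lean mouse 21L, WT lean mouse 26R, KO lean mouse 20L or KO lean mouse 9L, and 10 were called without KO lean mouse 20R. Over the 14 fits that each left out 1 mouse, Arg1 and Ftcd kept their calls in 9, Uroc1 in 8, Sdsl in 5 and Bckdha in 4. With a random block for the number in front of the mouse identifiers, 0 members were called, with adjusted p of 0.16 for Arg1 and 0.217 for Bckdha. The shares of all genes called with the block or with mice left out are not given here, so these changes are not shown to be particular to the members. KO lean mice stand on one side of this comparison and of the KO diet comparison, and the values of the latter for Arg1, Ftcd, Sdsl and Uroc1 (-0.51, -0.35, -0.85 and 0.62) share those 7 mice.

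**Figure D3:**
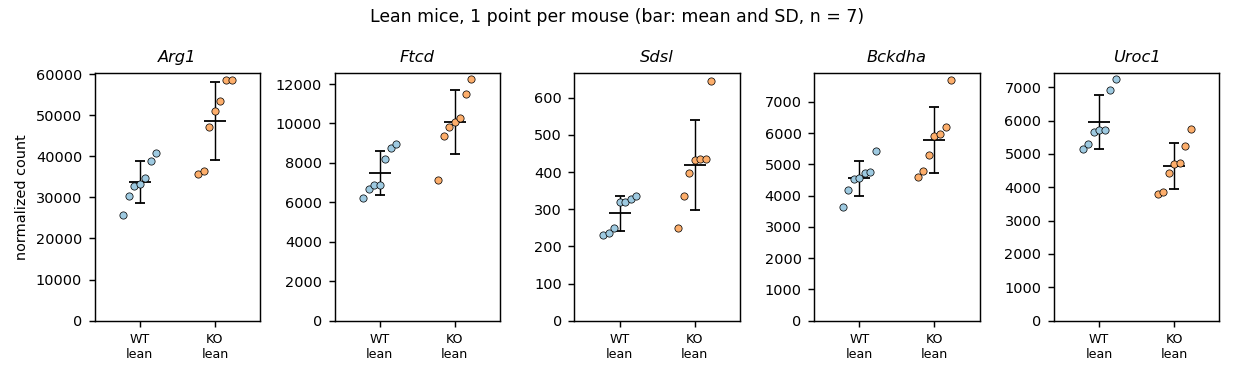
Normalized counts (vertical axis, from 0) of the 5 members called among lean mice, 1 point per mouse with the mean and SD of 7 mice per group. The groups overlap in every panel, KO lean mice lie mostly above WT lean mice for Arg1, Ftcd, Sdsl and Bckdha, and mostly below for Uroc1.

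Other branches among lean mice had no called member. In the lysine chain Gcdh came closest (0.33 ± 0.13, adjusted p = 0.118). The smallest p of its branch belonged to Hpd for tyrosine (0.25 ± 0.16, adjusted p = 0.327), Tdo2 for tryptophan (0.32 ± 0.16, adjusted p = 0.215), Prodh2 for proline (0.08 ± 0.15, adjusted p = 0.771), Gpt for transamination (0.34 ± 0.16, adjusted p = 0.197), Ahcy for methionine (0.46 ± 0.23, adjusted p = 0.208) and Amt for glycine cleavage (-0.23 ± 0.16, adjusted p = 0.375). Kupffer cell and macrophage markers moved with the lean comparison, with 9 of 11 tested markers higher in KO lean mice. Their summed normalized counts were 4528 to 9418 in WT lean and 10354 to 21666 in KO lean mice, which did not overlap, and none of the listed markers was at 0. Of 9 hepatocyte markers 0 were called (limma, with 1 lower at an unadjusted p under 0.05), with sums of 1610420.0 to 2167850.0 and 1612700.0 to 2043730.0. Other markers also moved, with 2 of 5 lymphocyte and 2 of 10 sinusoidal endothelial markers higher, 1 of 12 pericentral markers higher and 1 lower, 1 of 10 periportal markers higher, and 1 of 12 stellate cell and 1 of 6 cholangiocyte markers lower. The part of this in the member results was not tested.

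Lysine is also the residue that histone methyltransferases modify. A list of 32 lysine methyltransferase genes, which also held the calmodulin enzyme Camkmt, was set beside the lysine chain, and 22 were tested. From these same mice the authors reported lysine degradation among the KEGG pathways lower in KO lean than in WT lean mice. The counts below are not independent of that report. In KO lean compared with WT lean mice 9 of 22 were lower and 0 higher, beside 8.30% and 8.00% of all genes, with a median log2 fold change of -0.31. Whsc1l1 gave -0.74 ± 0.14, adjusted p = 0.0302, Setd2 -0.67 ± 0.17, adjusted p = 0.043 and Ash1l -0.77 ± 0.20, adjusted p = 0.0435. The 6 lysine catabolic members had 0 calls and a median of 0.21 in the same mice. In WT obese against WT lean mice 0 of 22 methyltransferases were called (limma, with 2 lower at an unadjusted p under 0.05), and in KO obese against KO lean mice 4 were higher and 1 lower.

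Other genes of amino acid metabolism outside the 54 were listed from general knowledge. For these lists, as for the markers above, the shares of all genes called higher and lower are the background. They were 3.65% and 2.61% in WT obese against WT lean mice and 12.0% and 12.1% in KO obese against KO lean mice. Among lean mice they were 8.00% and 8.30% in KO. Of 47 other enzymes tested in WT mice 5 were higher in obese mice and 0 lower, among them Agxt2, an alanine-glyoxylate aminotransferase (0.60 ± 0.095, adjusted p = 0.00284), Hsd17b10, a dehydrogenase of isoleucine breakdown (0.80 ± 0.13, adjusted p = 0.00375), and Shmt2, mitochondrial serine hydroxymethyltransferase (0.46 ± 0.12, adjusted p = 0.0442). In KO mice 7 were higher and 11 lower. Glul, glutamine synthetase, rose by 0.86 ± 0.15, adjusted p = 0.00425, and Agxt and Gcat, which act on glyoxylate, serine and threonine carbon, gave -1.23 ± 0.23, adjusted p = 0.00558 and -0.89 ± 0.17, adjusted p = 0.00611. Among lean mice 4 of 46 were higher and 2 lower in KO, led by Gcsh of the glycine cleavage system (0.43 ± 0.12, adjusted p = 0.0461).

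Of 22 tested amino acid carriers 1 was lower in WT obese mice, the mitochondrial glutamate carrier Slc25a22, which ran from 7661 to 11797 in lean to 2998 to 9940.0 in obese mice (-1.08 ± 0.22, adjusted p = 0.0135). In KO mice 1 carrier was higher, the glutamate transporter Slc1a2 (0.78 ± 0.15, adjusted p = 0.00521), and 3 were lower, Slc25a22 among them (-0.75 ± 0.26, adjusted p = 0.0587). Of 21 carriers tested among lean mice 1 was lower in KO, again Slc25a22 (-0.40 ± 0.15, adjusted p = 0.0932). Among 27 regulators the stress-response factor Atf5 was lower in WT obese mice (-0.90 ± 0.23, adjusted p = 0.0387) and in KO obese mice (-1.14 ± 0.26, adjusted p = 0.0117). In KO obese mice 5 regulators were higher and 4 lower, and Cebpa, a hepatocyte transcription factor, gave -0.81 ± 0.16, adjusted p = 0.0064. Among lean mice 3 were higher and 2 lower in KO, and Cebpa gave 0.69 ± 0.18, adjusted p = 0.0417.

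Among obese mice, no member was called for genotype or for RvE1 in limma. Between KO obese and WT obese mice 0.0141% of 14162 genes were called and 0 of 54 members, and at an unadjusted p under 0.05 there were 0 members higher and 0 lower. DESeq2 and edgeR called 0 members as well. The smallest p was that of Ivd, isovaleryl-CoA dehydrogenase (-0.16 ± 0.11, 95% interval -0.40 to 0.083). Prodh2 gave -0.13 ± 0.11 (-0.36 to 0.10), Hgd -0.18 ± 0.15 (-0.50 to 0.14) and Gldc 0.18 ± 0.15 (-0.13 to 0.48). Of the members called among lean mice, Arg1 gave -0.047 ± 0.21 (-0.49 to 0.40) and Uroc1 -0.012 ± 0.10 (-0.23 to 0.20) among obese mice. The interval lay within 1 log2 unit of 0 on both sides for 52 of 54 members, and the exceptions included Tat (-1.58 to 0.65).

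RvE1 called 0 of 54 members in WT obese mice, where 0% of 13085 genes were called, and 0 of 54 in KO obese mice, where 0% of 14207 genes were called (limma). DESeq2 and edgeR also called 0 members in either genotype. With RvE1 the authors' own DESeq2 analysis reported a small number of changed genes in each genotype, too few for a pathway clustering. The limma zeros are therefore not particular to the members. For DESeq2 and edgeR the counts over all genes are not given here. At an unadjusted p under 0.05 there was 1 member higher in WT mice, and 1 higher and 3 lower in KO mice, beside 2.48% of all genes higher in WT mice, and 3.45% higher and 4.85% lower in KO mice. Amt, the aminomethyltransferase of glycine cleavage, had the smallest p in both genotypes. It ran from 475 to 658 in WT obese mice (median 614) and from 619 to 759 in WT obese+RvE1 mice (median 706) (0.22 ± 0.088, adjusted p = 0.772), and from 503 to 663 in KO obese mice (median 612) and from 562 to 802 in KO obese+RvE1 mice (median 749.7) (0.27 ± 0.10, adjusted p = 0.557). In WT mice Mat1a gave 0.29 ± 0.17 (95% interval -0.066 to 0.65), Gldc 0.24 ± 0.14 (-0.058 to 0.54) and Aadat -0.20 ± 0.14 (-0.49 to 0.086). In KO mice 3 of the 5 tryptophan enzymes followed, with Tdo2 at -0.47 ± 0.20 (-0.89 to -0.041), Kmo at -0.29 ± 0.13 (-0.55 to -0.017) and Kynu at -0.31 ± 0.14 (-0.60 to -0.017), each with an adjusted p of 0.578 or more.

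The interaction of RvE1 with genotype called 0 members and 0% of 13059 genes (limma), with 0 members at an unadjusted p under 0.05 and 0 called by DESeq2 or edgeR. Its smallest p values belonged to Aldh7a1 (-0.26 ± 0.14, 95% interval -0.55 to 0.032), Mccc1 (-0.26 ± 0.18, -0.63 to 0.11), Kmo (-0.28 ± 0.20, -0.69 to 0.12) and Kynu (-0.36 ± 0.26, -0.88 to 0.16). The median log2 fold change of the members with RvE1 was -0.0037 in WT and -0.10 in KO mice, and that of all genes 0.0047 and -0.0082. Of the other lists, no amino acid enzyme, carrier, regulator or lysine methyltransferase was called with RvE1 or for genotype among obese mice (limma). At an unadjusted p under 0.05, the other enzymes gave 0 of 47 between genotypes, 2 of 46 higher with RvE1 in WT mice and 3 of 47 lower in KO mice.

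**Figure D4:**
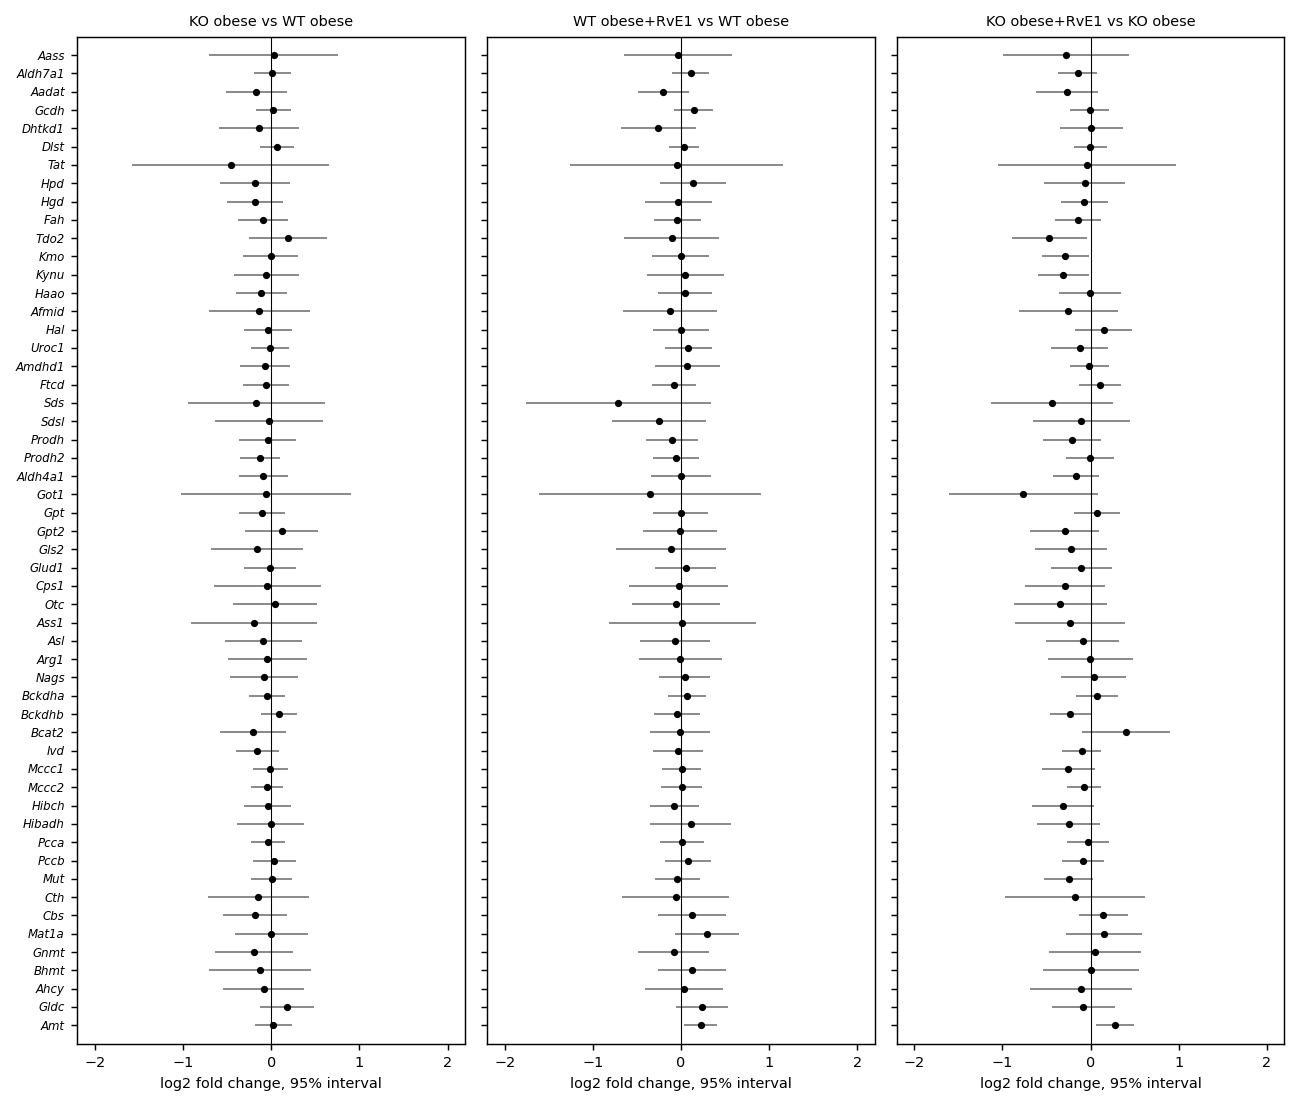
Log2 fold change of the 54 members (points) with 95% intervals from limma (lines) in KO obese against WT obese mice and with RvE1 in WT obese and KO obese mice. The interval crosses 0 for every member in the genotype comparison, for all but Amt with RvE1 in WT mice, and for all but Amt, Tdo2, Kmo and Kynu with RvE1 in KO mice, and Tat, Got1 and Sds have wide intervals.

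**Figure D5:**
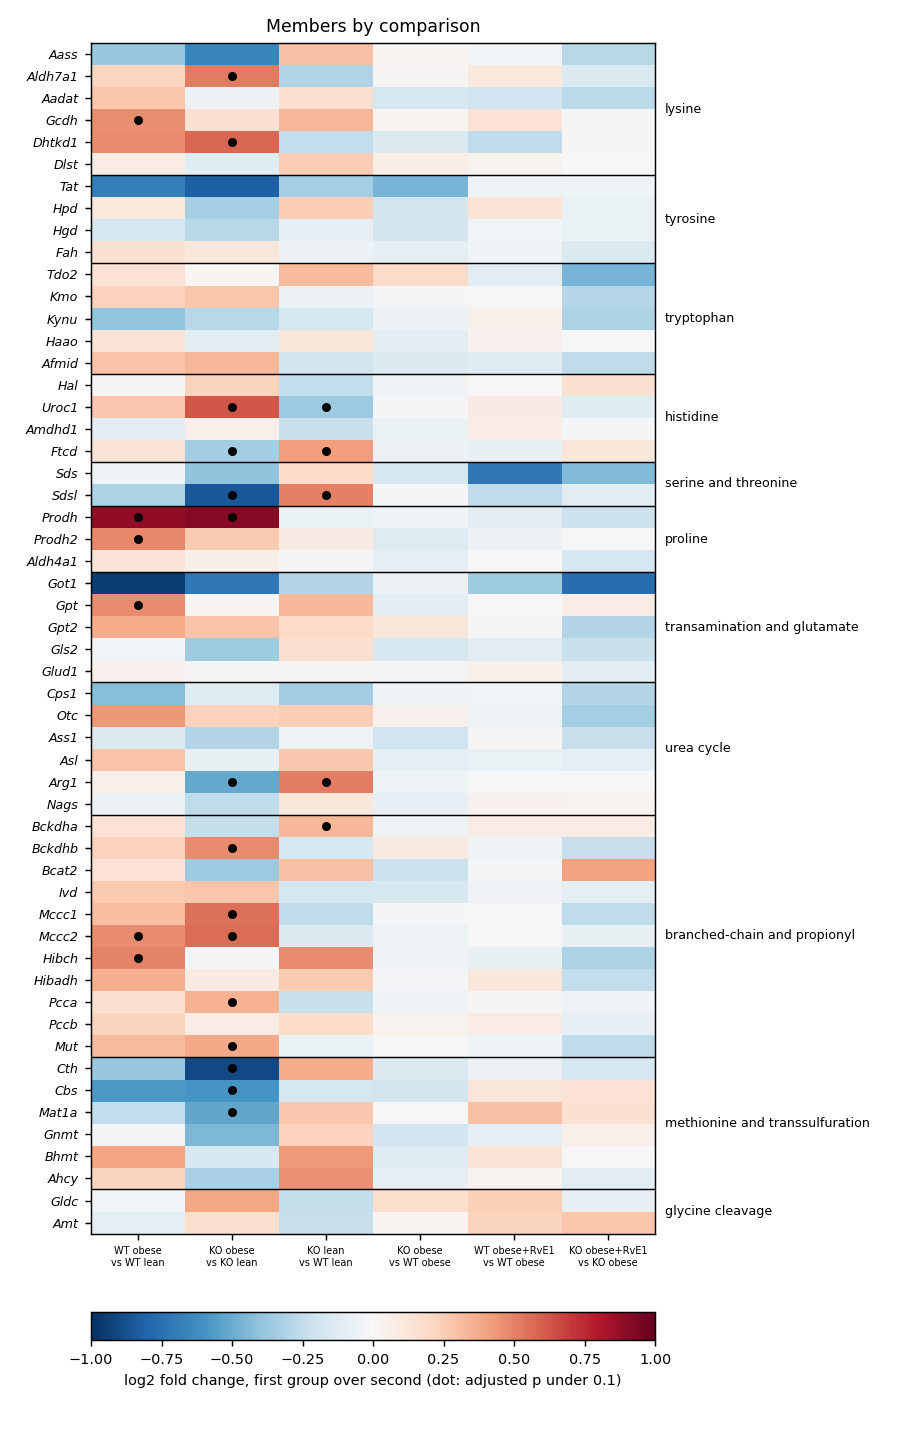
Log2 fold change of the 54 members (rows, by branch) in 6 comparisons (columns), from blue (lower in the first group) to red (higher), with a black dot where the adjusted p was under 0.1. Dots fall in the 2 diet columns (6 in WT, 15 in KO) and the lean genotype column (5), and the 3 columns among obese mice hold none.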

How the data were processed

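Liver RNA of 42 mice was measured, 7 per group, with 1 library per mouse. The authors sequenced TruSeq stranded libraries, aligned read pairs to mm10 with Bowtie2, counted pairs per gene with featureCounts (both ends mapped) and ran DESeq2 once per comparison. For these steps the version, the annotation and the setting for strand were not given in the sources used here. The deposited signal values are counts divided by size factors, comparable within a table only, and the deposited tables also hold the authors' fold changes and p-values, which were not used. Every value was a whole number of reads (100% within 0.1 reads), and a library gave the same reads in every table. No library repeated another: the smallest chi-square per gene within a group was 21.7.

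Log2(normalized count + 1) was tested with limma 3.58.1 (eBayes with trend, two-sided, under R 4.3.3), keeping genes whose mean was at least 5, with p-values BH-adjusted over all genes of a table and calls at an adjusted p under 0.1. Interactions were contrasts of 2 fold changes, each formed within its own table. The limma procedure was tested on simulated data. The main fits take the mice of a group as independent, and their p-values measure the spread between mice only under that assumption. Nothing in the labels says which mice shared a litter or cage. Mice that share an identifier number had a fitted correlation of 0.26 in WT obese vs WT lean, 0.24 in KO obese vs KO lean and 0.22 in KO lean vs WT lean. Where such mice are alike, these p-values are too small.

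Results were recomputed with a pseudocount of 0.5 or 4, without the filter, with TMM, with equal totals, with a random block for the number in front of the mouse identifiers, with calls limited to a fold change above 1.5 or to an adjusted p under 0.05, with edgeR 4.0.16 and DESeq2 1.42.0 on recovered reads, and after leaving out each mouse or identifier number. The members, gene lists and tests were chosen with earlier results of these data known. Up to 8 members called higher and 8 called lower were described where 5 or more were called, and otherwise all called members and the 4 with the smallest p. The member with the smallest p of each branch was added for WT obese vs WT lean and KO lean vs WT lean, and up to 3 genes of each other list were named per comparison. Marker lists covered hepatocytes, pericentral and periportal hepatocytes, Kupffer cells, sinusoidal endothelium, stellate cells, cholangiocytes, lymphocytes, adipocytes, acinar pancreas and erythroid cells. Gene positions and exon lengths came from GENCODE M21 on GRCm38, the build of mm10, and promoters from RefSeq.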

Additional observations from a re-analysis of the deposited data

Results flagged for a closer look

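Among KO obese mice, Sdsl, the serine dehydratase-like gene, had 1 mouse far above the others. Mouse 23L reached 579 normalized counts and the next mouse 268, a gap of 0.675 of the group's range on the log2 scale, above Dixon's 95% critical value for 7 samples. Without this mouse the log2 fold change of Sdsl in KO obese vs KO lean mice was -1.05 (limma, adjusted p = 0.00259), compared with -0.85 with it. Of 186 sets of 7 values examined (31 described members in 6 groups) this was the 1 found, while chance marks about 1 in 20. The library of mouse 23L had the fewest reads on listed genes of all 42 mice (15992556), and the members took 3.29% of them, the highest share among KO obese mice. Whether this bears on its values was not tested. Mouse 23L was also the highest KO obese mouse for several other members. Among these were Tat (81796, next 47619), Got1 (14577, next 7929), Sds (11666, next 5805), Aass (22179, next 12920) and Gpt2 (33284, next 25479). It was not so for every member, with Prodh at 5107 and mouse 31L at 5716. Without mouse 23L the KO diet comparison called 9 members higher and 12 lower, against 9 and 6 with it. The share of all genes called without this mouse is not given here.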

How the results depend on the processing

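Member counts kept within 1.5 times under pseudocounts of 0.5 and 4, no filter, TMM, equal totals and edgeR in all 8 tests, although equal totals changed the directions given above. With a fold change above 1.5 the number of called members was 1 in WT obese vs WT lean, 5 in KO obese vs KO lean and 0 in KO lean vs WT lean, and with an adjusted p under 0.05 it was 0 in the last. The identifier number as a random block left 4 in WT obese vs WT lean, 8 in KO obese vs KO lean (7 higher, 1 lower) and 0 in KO lean vs WT lean. The correlation fitted between mice that share an identifier number was 0.26, 0.24 and 0.22 in these comparisons. The labels do not say what this number means, it is nested in groups except for number 23, and the cause of the lost calls was not tested. DESeq2 called 1 member for the interaction of diet and genotype. Leaving out 1 mouse gave 4 to 8 calls in WT obese vs WT lean, 11 to 21 in KO obese vs KO lean, 0 to 10 in KO lean vs WT lean and 0 to 4 for the diet interaction, and leaving out 1 identifier number gave 3 to 8, 5 to 21, 0 to 8 and 0. With RvE1 in KO mice the range was 0 to 1 (1 without number 10), and the remaining tests gave 0 throughout. For the block and for mice or numbers left out, the shares of all genes called are not given here. Changes in these counts are therefore not shown to be particular to the members. Of 1825 alternative values of described members 8 changed sign, none of a called member: without number 6, Tat gave 0.15 (range over mice or numbers left out -1.35 to 0.15) and Sdsl 0.025 (-0.48 to 0.025) in WT obese vs WT lean and Gldc -0.047 (-0.047 to 0.29) in KO obese vs WT obese, without number 8, Amt gave 0.035 (-0.22 to 0.035) in WT obese vs WT lean, and without number 30, Kynu gave 0.0045 (-0.85 to 0.0045) for the interaction of RvE1 and genotype. Prodh2 in KO lean vs WT lean gave -0.036 under equal totals, -0.038 without mouse 20L and -0.15 without number 20 (-0.15 to 0.23). No paired analysis was possible because the groups compared share at most 1 identifier number. Depth limits the precision of low genes, and of the members Ass1 had the lowest level per kilobase in WT lean mice.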
